A study of Mus musculus with 3 samples.

Results

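The data concern 40 homeobox genes outside the Hox clusters, most of which pattern the developing brain. They were chosen by name from 21631 protein-coding genes, with earlier results of these data known. They comprise 11 LIM genes, 6 POU genes, 4 NK genes, 6 Iroquois genes, 4 sine oculis homeobox genes (Six2, Six3, Six4 and Six6) and 9 others. All 40 were found in the gene table. Accessible chromatin was profiled in whole brain of C57BL6 mice with single-cell combinatorial indexed ATAC-seq. In this assay the enzyme Tn5 cuts accessible DNA and adds barcodes to it. Nuclei were indexed in 96 wells and again by PCR on a chip of 5184 nanowells. There is 1 library each of the versions sciATACv1, sciATACv2 and sciATACv3 (v1, v2 and v3 below). All 3 share tissue and strain. The labels used here state neither how the versions differ nor how many animals were used, nor their sex or age. Each library is a list of regions called accessible (peaks), with no height, read count or cell type, so a peak does not show in which cells or in how many a gene was open. Where 3 values stand in a row without a library name, they are in the order v1, v2, v3.

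Homeobox genes encode transcription factors with a homeodomain, a DNA-binding fold that recognises short AT-rich sites. In the embryonic neural tube they are switched on in restricted domains along the head-to-tail and back-to-belly axes, and combinations of them set which neurons each domain makes. Many stay active in subsets of adult neurons. In tissues where they are silent, such genes are known for long CpG-rich stretches, free of DNA methylation, that are held by Polycomb complexes. A peak at a promoter is not a measure of expression.

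The promoters below carry the main observation, a peak at the gene start in every library, and are shown for the gene of each class with the largest mean share of its window under peaks among genes with a RefSeq promoter. Irx5, Irx1 and En2, which have larger shares, have none in the table. A window is the gene span plus 5 kb at either end. Pou4f1 and Lhx8 were added after their values were seen, Pou4f1 for the most CpG of all and Lhx8 for few CpG and a start outside the v2 peaks. Lhx9, not shown, has as few CpG as Lhx8. Each sequence holds the 250 bases before the start, 5′ to 3′ on the strand of the gene, from RefSeq on GRCm38.p6, the same build as mm10. Capitals mark CpG dinucleotides. The positions are chr1:42695518-42695767 (+) for Pou3f3, chr13:116309689-116309938 (-) for Isl1, chr5:101664712-101664961 (-) for Nkx6-1, chr13:72628570-72628819 (+) for Irx2, chr17:85620584-85620833 (+) for Six3, chr19:59458440-59458689 (+) for Emx2, chr14:104468000-104468249 (-) for Pou4f1 and chr3:154330561-154330810 (-) for Lhx8.
Pou3f3: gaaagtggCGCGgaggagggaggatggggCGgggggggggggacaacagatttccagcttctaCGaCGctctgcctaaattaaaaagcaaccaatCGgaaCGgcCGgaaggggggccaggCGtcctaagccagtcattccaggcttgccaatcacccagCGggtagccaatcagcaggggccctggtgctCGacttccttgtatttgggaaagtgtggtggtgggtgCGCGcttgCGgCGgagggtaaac
Isl1: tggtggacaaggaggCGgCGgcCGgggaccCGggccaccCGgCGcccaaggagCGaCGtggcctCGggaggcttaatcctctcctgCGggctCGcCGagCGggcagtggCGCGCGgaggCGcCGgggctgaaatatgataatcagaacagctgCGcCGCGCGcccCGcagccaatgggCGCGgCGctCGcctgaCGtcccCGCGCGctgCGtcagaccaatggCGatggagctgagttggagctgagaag
Nkx6-1: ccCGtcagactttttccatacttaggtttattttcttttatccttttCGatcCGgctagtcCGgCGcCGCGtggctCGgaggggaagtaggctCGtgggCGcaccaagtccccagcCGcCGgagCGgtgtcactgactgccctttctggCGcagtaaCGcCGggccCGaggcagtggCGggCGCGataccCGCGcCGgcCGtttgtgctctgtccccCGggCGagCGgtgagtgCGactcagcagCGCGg
Irx2: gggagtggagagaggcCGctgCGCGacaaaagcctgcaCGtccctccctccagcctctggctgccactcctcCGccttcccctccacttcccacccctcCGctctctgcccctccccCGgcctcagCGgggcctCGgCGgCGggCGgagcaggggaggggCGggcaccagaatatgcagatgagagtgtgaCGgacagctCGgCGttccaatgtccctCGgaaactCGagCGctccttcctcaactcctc
Six3: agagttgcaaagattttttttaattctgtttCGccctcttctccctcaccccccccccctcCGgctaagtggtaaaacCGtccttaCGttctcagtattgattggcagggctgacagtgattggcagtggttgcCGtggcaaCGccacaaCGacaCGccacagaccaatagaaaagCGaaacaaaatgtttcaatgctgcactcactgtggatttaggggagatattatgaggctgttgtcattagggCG
Emx2: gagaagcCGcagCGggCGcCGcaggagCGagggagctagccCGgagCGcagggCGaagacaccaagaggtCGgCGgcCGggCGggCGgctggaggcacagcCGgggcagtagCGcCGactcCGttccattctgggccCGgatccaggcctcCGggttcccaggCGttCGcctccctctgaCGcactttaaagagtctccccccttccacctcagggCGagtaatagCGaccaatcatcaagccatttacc
Pou4f1: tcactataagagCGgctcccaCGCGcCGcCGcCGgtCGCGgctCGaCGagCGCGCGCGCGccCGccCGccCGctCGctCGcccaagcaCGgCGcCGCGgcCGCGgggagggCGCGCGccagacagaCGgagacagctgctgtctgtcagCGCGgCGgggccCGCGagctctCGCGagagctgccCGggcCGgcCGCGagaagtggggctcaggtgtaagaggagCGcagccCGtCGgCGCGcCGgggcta
Lhx8: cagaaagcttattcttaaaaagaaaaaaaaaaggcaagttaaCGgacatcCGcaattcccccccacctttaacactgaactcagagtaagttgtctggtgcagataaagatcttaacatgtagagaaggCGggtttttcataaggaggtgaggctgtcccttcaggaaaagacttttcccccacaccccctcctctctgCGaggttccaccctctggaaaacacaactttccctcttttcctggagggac

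Of these 8 stretches, Pou3f3, Isl1, Nkx6-1, Irx2, Emx2 and Pou4f1 lay under peaks over all 250 bases in each of the 3 libraries. Six3 was covered whole in v1 and v3 and over 241 bases in v2. The Lhx8 promoter, with 4 CpG, was covered over 185, 0 and 250 bases. The Pou4f1 promoter holds 47 CpG, Isl1 33, Nkx6-1 30, Emx2 24, Irx2 19, Pou3f3 15 and Six3 10.

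A RefSeq promoter was available for 32 of the 40 genes, with 35 promoters in all. With the first promoter of each gene, the median GC content was 65.2% (range 46.0 to 78.0%), against 55.6% over 17274 protein-coding genes. The median number of CpG was 17.5 against 10. With GC above 50% and a ratio of observed to expected CpG above 0.6, 22 of the 32 (68.75%) were of the CpG island type, against 42.0% of protein-coding genes. The homeodomain core TAATTA, searched like the other motifs on both strands, was found in 1 of 32 (3.125%, against 4.38%), the promoter of Msx2. TATAAA was found in 1 (3.125%, against 12.5%), the promoter of Lhx3. CCAAT was found in 18 (56.25%, against 36.7%), GGGCGG in 22 (68.75%, against 43.2%) and GCGC in 26 (81.25%, against 52.2%). Matches to GGGCGG and GCGC can overlap. These are matches of letters and do not show binding.

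Every one of the 40 genes had a peak within 1 kb of its start in each library. Over all protein-coding genes this held for 78.2%, 82.7% and 77.9%. Related genes were much like the 40. It held for 25, 26 and 26 of 26 further genes of the same homeobox classes and for all 9 Pax genes. Among proneural bHLH genes it held for 15, 16 and 16 of 16, and among Hox genes for 34, 38 and 35 of 39. For the 8 genes without a RefSeq promoter either end of the gene span was accepted as the start. Among the 32 genes with a known start the count was 32 in each library, against 77.0%, 81.7% and 76.6% of the 17274 genes with one. The first listed start itself lay under a peak in 31, 29 and 32 of 32 genes, against 69.4%, 75.05% and 70.2% of genes. The exceptions missed by less than 100 bp. In v1 the nearest peak to the start of Six2, a gene of kidney and head mesenchyme progenitors, was 7 bp away. In v2 it was 93 bp away for the midbrain gene En1, 94 bp for the hypothalamic gene Otp and 1 bp for Lhx8.

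Peaks covered a larger part of these windows than of most gene windows. The median share of the window under peaks was 37.1%, 43.0% and 47.2%, against 23.5%, 35.8% and 27.8% over all protein-coding genes. The share was above the all-gene median in 36, 30 and 35 of 40 genes, where 50% of genes are above it by construction. The top 10% of genes by covered share held 16, 9 and 20 of the 40. More than 50% of the window was covered in 7 genes in v1 (1.16% of all genes), 13 in v2 (15.7%) and 19 in v3 (6.84%). Per kb of window the median gene had 0.458, 0.508 and 0.366 peaks, against 0.297, 0.426 and 0.266 over all genes, and 34, 26 and 32 of the 40 lay above those medians. The windows are short, with a median of 16.8 kb against 27.3 kb. Against the 14133 genes with windows of at most 40 kb, 34, 31 and 33 of the 36 patterning genes of that size had a covered share above the median.

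**Figure D1:**
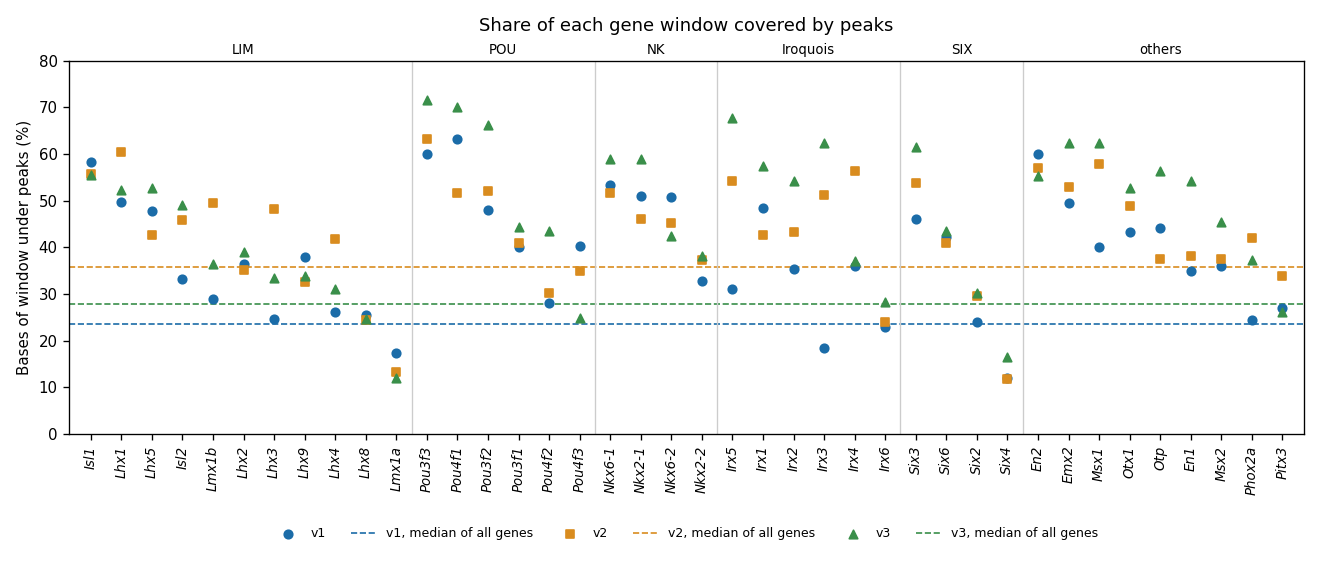
Share of the bases of each gene window (span plus 5 kb on each side) under peaks, in %, for the 40 genes grouped by class and ordered within a class by their mean. Each point is 1 library (circle v1, square v2, triangle v3), and dashed lines are the medians of 21631 protein-coding genes at 23.5% (v1), 35.8% (v2) and 27.8% (v3). Pou3f3 stands highest in v3 at 71.6%, while Lmx1a and Six4 lie under the dashed line of each library.

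With wider flanks this excess was not seen. When 20 kb were added on each side in place of 5 kb, the median covered share was 21.3%, 26.2% and 24.6%, against 22.2%, 35.1% and 26.5% over all genes, and only 17, 8 and 15 of the 40 stood above the all-gene median. Within the gene spans alone it was largest, at 48.3%, 54.0% and 60.2% against 24.0%, 39.6% and 27.8%. The 40 genes are short, with a median 5 kb flank window of 16.8 kb against 27.3 kb. Only the 5 kb flank was also set against genes with short windows. The part of gene length in this change with flank width was not tested.

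The position of the peaks shows the same limit. In the first kb after the start, 78.1%, 88.6% and 91.1% of bases lay under peaks over the 32 genes with a known start, against 53.9%, 61.5% and 61.0% over 17274 protein-coding genes. Over all genes, coverage between 3 and 4 kb downstream was 9.28%, 15.3% and 11.4%, less than the 23.0%, 34.5% and 27.3% between 7 and 8 kb. The patterning genes had 35.8%, 33.4% and 44.9% between 3 and 4 kb and 24.9%, 41.5% and 37.0% between 7 and 8 kb. Upstream, between 4 and 5 kb, they had 26.2%, 38.9% and 40.2% against 8.73%, 13.8% and 10.9%. Over all genes coverage is low in that bin too, and was 17.2%, 27.4% and 19.9% between 6 and 7 kb upstream. There the patterning genes had 20.2%, 30.8% and 24.3%. Further out the order turned. Between 13 and 14 kb upstream of the start the patterning genes had 4.21%, 9.39% and 9.97%, against 17.4%, 27.0% and 20.5%. Only 4, 7 and 7 of the 32 genes had a peak in that bin. The genes set beside them here were not matched for length, and the part of gene length in these differences was not tested.

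**Figure D2:**
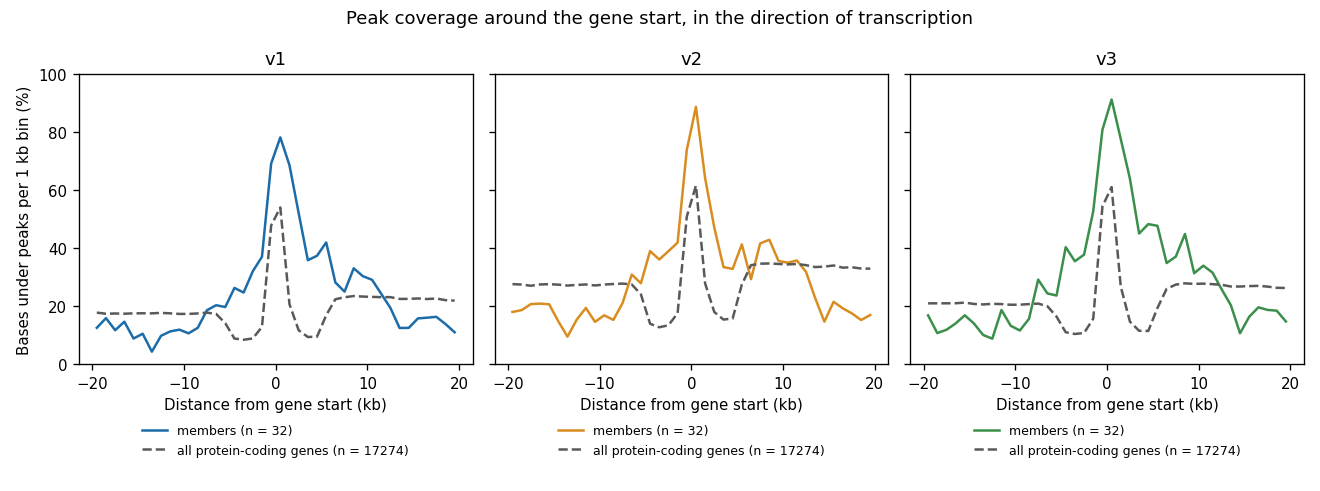
Bases under peaks, in % of each 1 kb bin, from 20 kb before to 20 kb after the gene start in the direction of transcription, 1 panel per library. Solid lines are the 32 patterning genes with a known start, dashed lines 17274 protein-coding genes not matched for length. In all 3 libraries the solid lines stay above the dashed ones from 7 kb before to 6 kb after the start and lie under them beyond 8 kb upstream and 12 kb downstream.

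The LIM genes encode factors with a pair of zinc-binding LIM domains that bind cofactors beside the homeodomain. Isl1, which specifies motor neurons and striatal and cholinergic neurons, lay at chr13:116298270-116309688. Its window held 15, 11 and 11 peaks and was covered to 58.2%, 55.7% and 55.5%. The 3 values lie close together, at percentiles 99.8, 94.9 and 97.2 of all genes. Lhx1, a gene of Purkinje cells and hypothalamic and spinal interneurons (chr11:84517975-84525534), held 9, 9 and 8 peaks over 49.8%, 60.5% and 52.3% of its window. Its widest peaks were alike, 3100 bp in v1, 3213 bp in v2 and 3184 bp in v3. Lmx1a, a factor of the floor plate and midbrain dopamine neurons, was the LIM gene with the smallest covered share, 17.5%, 13.3% and 11.9%. Its span on chromosome 1, 167688230 to 167848741, gives the longest window of all 40 at 171 kb. It held 42, 28 and 23 peaks. Merged over the libraries these made 38 regions, of which 10 were in v1 only. The other 8 LIM genes ranged from 24.5% (Lhx8 in v2) to 52.8% (Lhx5 in v3).

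Isl2, a second gene of motor neurons and of retinal ganglion cells, shows how the number of peaks depends in part on where a stretch is cut. Its window (gene at chr9:55538677-55547667) held 4, 12 and 4 peaks, while 33.2%, 45.9% and 49.0% of it was covered. In v1 and v3 a large part of the gene body was 1 peak, of 4602 bp in v1 and 5791 bp in v3 (chr9:55541542-55547332). The v3 peak was the widest of any of the 40 genes. In v2 the stretch of the v1 peak was split into 4 peaks that together covered 92.8% of it. Splitting was not the whole difference, as 3 of the 7 merged regions of the window were in v2 only. The share of peaks in the Isl2 window in v2 was 2.195 times that in v1 (95% interval 0.67 to 9.34) and that in v3 was 0.55 times that in v2 (0.13 to 1.83), and both intervals include equality.

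**Figure D3:**
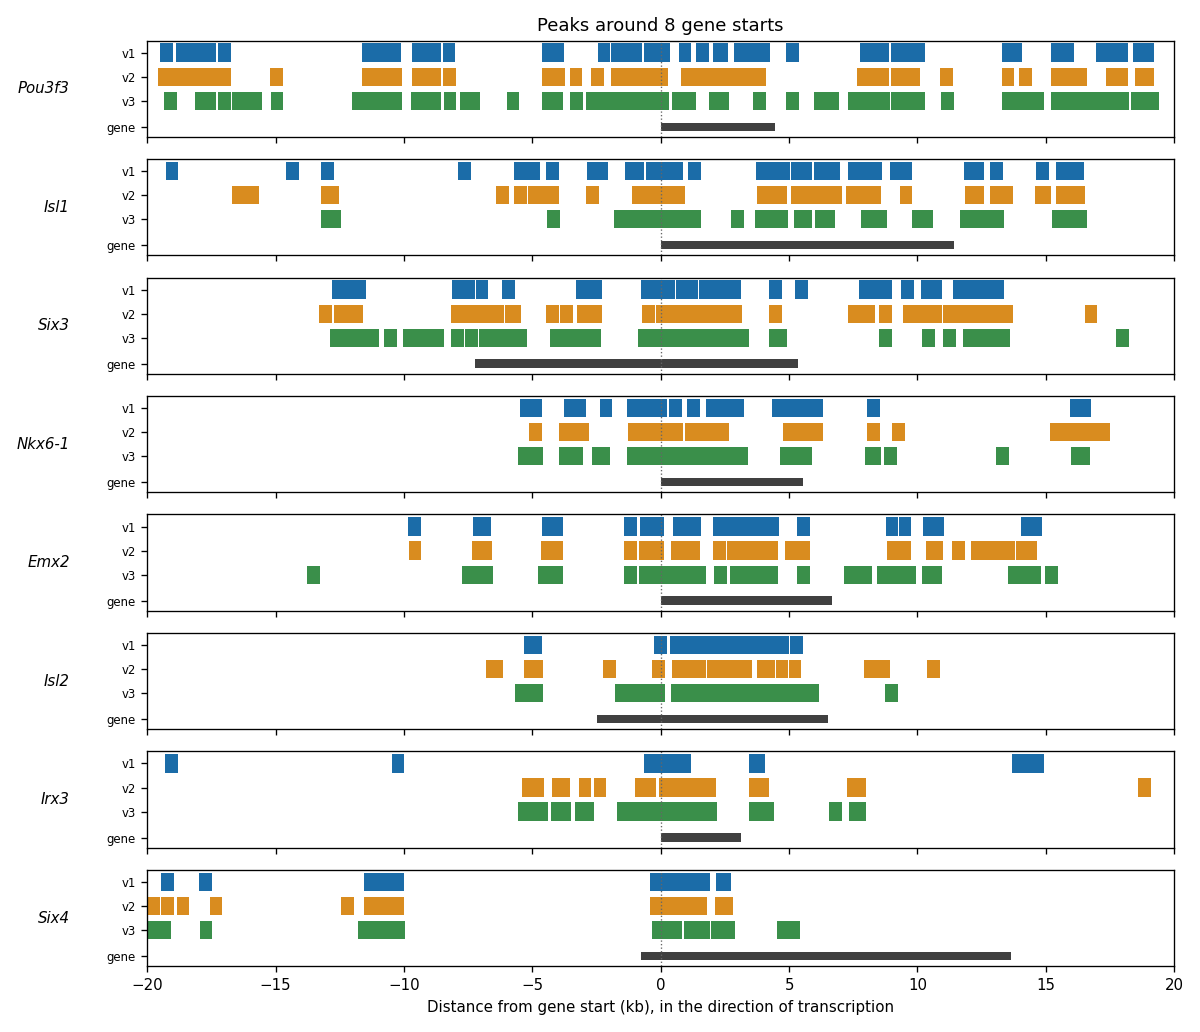
Peaks of the 3 libraries (v1, v2 and v3 rows) and the gene span (dark bar) from 20 kb before to 20 kb after the start of 8 genes, with distance in kb in the direction of transcription and a dotted line at the start. Pou3f3, Isl1, Six3, Nkx6-1 and Emx2 are the genes with the largest covered share of their class that have a known start, Isl2 and Irx3 have large share ratios between libraries and Six4 has the smallest covered share. At Isl2 a long block of the gene body is 1 peak in v1 and v3 and several in v2.

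The POU genes join a POU-specific domain to the homeodomain. Pou3f3 (chr1:42695768-42700210), also called Brn1 and expressed in upper-layer cortical neurons, had the largest covered share of the 40 genes averaged over the libraries. It held 11, 8 and 10 peaks over 60.0%, 63.2% and 71.6% of its window. Pou4f1, a factor of habenula, brainstem and sensory ganglion neurons (chr14:104461675-104468118), was next, with 63.2% in v1, above Pou3f3, and 70.1% in v3. In v2 it was covered to 51.6%, and its widest peak measured 1451 bp there against 3674 bp in v1 and 2970 bp in v3. Pou4f3, the factor of inner ear hair cells on chromosome 18, had the smallest covered share of the class averaged over the libraries and held 6, 3 and 2 peaks over 40.2%, 34.8% and 24.8%. In v1 and v2 Pou4f2 was lower. Pou4f2, the factor of retinal ganglion cells, ran the other way, with 5, 4 and 7 peaks over 28.2%, 30.2% and 43.5%. Pou3f2, which overlaps with Pou3f3 in cortex, was covered to 48.0%, 52.0% and 66.2%, and Pou3f1 to 39.99%, 41.0% and 44.4%.

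The NK genes respond to Sonic hedgehog in the ventral neural tube. All 4 were above the all-gene median of covered share in every library. Nkx6-1, a gene of ventral progenitors and motor neurons (chr5:101659184-101664711), held 10, 7 and 7 peaks over 53.3%, 51.6% and 58.8% of its window. Its widest v3 peak ran over 4708 bp at chr5:101661330-101666037, from the gene body across the start. The peak over the start measured 1553 bp in v1 and 2174 bp in v2. The widest v1 peak of the window, of 1995 bp, lay outside the v3 peak at chr5:101658386-101660380. Nkx2-1, which specifies the medial ganglionic eminence and hypothalamus, held 10, 9 and 6 peaks over 51.0%, 46.0% and 58.9%. Nkx2-2, a gene of ventral interneurons and of oligodendrocyte maturation, was lowest with 12, 10 and 10 peaks over 32.7%, 37.3% and 38.2%. Nkx6-2, a gene of ventral progenitors and of oligodendrocytes, was covered to 50.7%, 45.2% and 42.4%.

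The Iroquois genes lie in clusters of 3, Irx1, Irx2 and Irx4 on chromosome 13 and Irx3, Irx5 and Irx6 on chromosome 8. No windows of the 40 genes overlapped, so the neighbours do not count the same peaks. All 6 genes had a larger covered share in v3 than in v1, as had 64.0% of all genes. Irx3, a factor of spinal progenitors (chr8:91798511-91801654), held 2, 8 and 7 peaks over 18.5%, 51.3% and 62.3% of its window. It stood at percentile 39.4 of all genes in v1 and 99.3 in v3. Its share ratio was 2.93 for v2 over v1 (95% interval 0.58 to 28.3) and 4.26 for v3 over v1 (0.81 to 42.0), both resting on the 2 peaks of v1. Irx5 had 6, 10 and 6 peaks over 31.0%, 54.3% and 67.7%, and Irx1 had 7, 6 and 6 over 48.5%, 42.7% and 57.4%. Irx6, a gene of retinal bipolar cells, was lowest on average, though above Irx3 in v1, with 3, 3 and 5 peaks over 23.0%, 23.9% and 28.2%. Irx4, a gene of the heart ventricle, was highest in v2, with 56.4% against 35.9% in v1 and 37.1% in v3.

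The sine oculis genes spread widely. Six3, which is needed for the forebrain and eye (chr17:85613608-85626191), held 14, 12 and 13 peaks over 46.1%, 53.8% and 61.5% of its window. Six6, a gene of eye, hypothalamus and pituitary, held 6, 4 and 4 over 42.1%, 41.0% and 43.6%. Six4, known mainly for muscle and ganglion development (chr12:73099609-73114031), held 2, 2 and 5 peaks over 11.9%, 11.9% and 16.6%, the smallest covered share of the 40 on average. A peak of 2332 bp in v1, 2225 bp in v2 and 1195 bp in v3 lay over its start. Six2 stood between these with 14, 11 and 7 peaks over 23.9%, 29.7% and 30.2%.

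Of the 9 other genes, En2 of midbrain and cerebellum (chr5:28165696-28172190) was highest in v1 and on average, with 10, 9 and 5 peaks over 59.9%, 57.1% and 55.3% of its window. Msx1 was higher in v2 and Emx2, Msx1 and Otp in v3. Its number of peaks was lower in v3, where the widest peak was 4762 bp against 2445 bp in v1 and 3586 bp in v2. Emx2, which patterns cortex and hippocampus, held 9, 10 and 9 peaks over 49.4%, 53.0% and 62.4%. Phox2a, a factor of noradrenergic and cranial motor neurons, held 4, 6 and 2 peaks over 24.4%, 42.0% and 37.3%. Pitx3, a factor of midbrain dopamine neurons and lens, was lowest on average, though above Phox2a in v1, with 8, 7 and 7 peaks over 26.9%, 33.8% and 26.04%. Msx1 and Msx2, genes of roof plate and craniofacial tissue, were covered to 40.1%, 57.7% and 62.3% and to 35.9%, 37.4% and 45.4%. En1 had 34.9%, 38.0% and 54.1%, Otx1 of forebrain 43.3%, 48.9% and 52.7%, and Otp 44.1%, 37.5% and 56.4%.

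By the region a gene is best known to pattern, an assignment by 1 main site for genes that often act in several, the 8 genes of telencephalon had median covered shares of 45.6%, 47.4% and 55.8% in v1, v2 and v3. The 6 of diencephalon and eye had 45.1%, 41.8% and 52.6%, and the 12 of hindbrain and spinal cord 33.0%, 45.5% and 51.6%. The 5 of midbrain and isthmus had 29.0%, 38.0% and 36.5%. The 4 of sensory ganglia, retina and inner ear had 34.2%, 32.5% and 35.9%, and the 5 acting mostly outside the brain 35.9%, 37.4% and 37.1%. The ranges of these groups overlap. Genes with their main role outside the brain were covered too, as Msx1 shows, and genes of the brain could be low, as Lmx1a shows.

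Wide peaks were frequent at these genes. The widest peak in the window exceeded 1500 bp in 30, 36 and 38 of 40 genes, against 53.0%, 66.5% and 72.3% of all genes. Related genes had them too. The count was 15, 23 and 26 of 26 further class genes and 12, 13 and 14 of 16 proneural genes. For Hox genes it was 16, 28 and 30 of 39, and for Pax genes 4, 8 and 7 of 9. For neuronal, glial and vascular genes it was 10, 15 and 14 of 15. The median widest peak was 1928 bp, 2208 bp and 2863 bp, against 1553, 1847 and 2057 bp. It was wider in v2 than in v1 in 25 of 40 genes (64.2% of all genes), wider in v3 than in v1 in 29 (70.7%) and wider in v3 than in v2 in 27 (55.0%). Of all peaks in the windows, 9.35% of 428 in v1, 14.6% of 437 in v2 and 27.6% of 337 in v3 were over 1500 bp, against 5.67%, 7.87% and 16.4% of all peaks of the libraries. Over all its peaks the v3 library had a median width of 726 bp, against 500 bp in v1 and v2. Where a peak lay over the first listed start, its median width was 1086, 1880 and 2188 bp, against 1359, 1421 and 1754 bp over all genes. In v1 these peaks were thus narrower than over all genes. A peak over 1500 bp lay over 12, 18 and 22 of the 32 starts, against 27.2%, 33.0% and 47.9% of all starts.

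**Figure D4:**
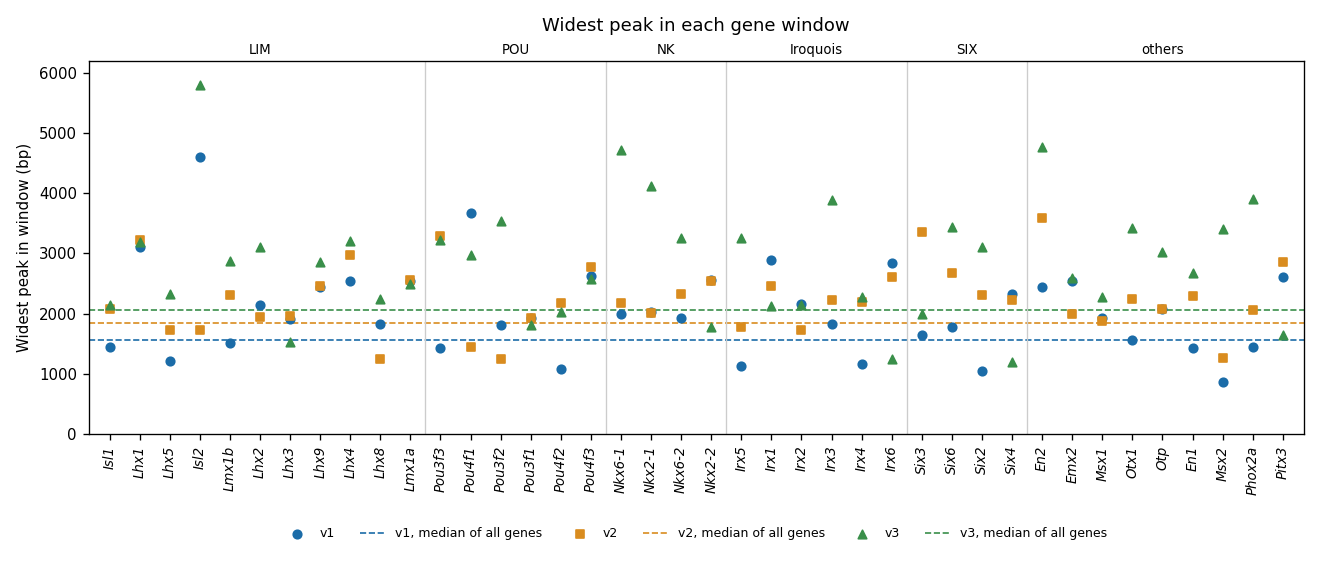
Width in bp of the widest peak in each gene window, for the 40 genes in the order of the plot of covered shares. Each point is 1 library, and dashed lines are the all-gene medians of 1553 bp (v1), 1847 bp (v2) and 2057 bp (v3). The v3 point of Isl2 at 5791 bp is the highest, followed by En2 and Nkx6-1 in v3.

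Between the libraries, the patterning genes held a smaller share of the peaks in v2. The windows held 428 of the 622754 peaks of v1 (0.0687%), 437 of the 850991 of v2 (0.0514%) and 337 of the 512023 of v3 (0.0658%). The share in v2 was 0.747 times that in v1 (exact conditional binomial 95% interval 0.652 to 0.856) and the share in v3 was 1.28 times that in v2 (1.11 to 1.48). For v3 over v1 the ratio was 0.958 (0.828 to 1.11), which includes equality. The intervals cover counting error only, and with 1 library per version the spread between libraries of a version is unknown, so no test between versions was made.

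The lower share in v2 ran through the classes. It was lower in v2 than in v1 in 33 of 40 genes, against 49.3% of all genes, and in all 4 NK and all 4 sine oculis genes, 5 of 6 POU, 4 of 6 Iroquois, 9 of 11 LIM and 7 of 9 other genes. It was higher in v3 than in v2 in 32 of 40, against 54.5% of all genes, including all 6 POU and all 4 sine oculis genes. These comparisons share the v2 library. Related lists ran the same way. The share was lower in v2 than in v1 in 26 of 39 Hox genes, 7 of 9 Pax genes, 18 of 26 further genes of the same homeobox classes, 11 of 16 proneural bHLH genes and 11 of 15 neuronal, glial and vascular genes. It was higher in v3 than in v2 in 32, 7, 16, 12 and 12 of them. Among the 7738 genes with a CpG island type promoter it was lower in v2 than in v1 in 61.7% and higher in v3 than in v2 in 69.4%. The median log2 share ratio was -0.43 for v2 over v1, against 0.00 over all genes, 0.40 for v3 over v2, against 0.09, and 0.04 for v3 over v1, against 0.05. For v3 over v1, 21 of 40 were higher, against 53.8% of all genes.

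Few genes passed a 2-fold share ratio. For v2 over v1 Isl2 and Irx3 were above (5.81% of all genes) and Lmx1a and Pou4f3 below (2.66%). The ratio of Lmx1a was 0.488 (0.292 to 0.806) and that of Pou4f3 0.366 (0.0592 to 1.71). For v3 over v1 Irx3 and Six4 were above (5.33%) and Pou4f3 below (5.08%), the latter at 0.405 (0.0400 to 2.27). Irx6 stood at 2.03 (0.394 to 13.1), within 2-fold once the pseudocount of 0.5 peaks was added, and Six2 at 0.608 (0.208 to 1.61). For v3 over v2 Pou4f2, Irx6 and Six4 were above (3.64%) and no gene was below (6.64%). Six4 had fewer than 10 peaks over the 3 libraries. Pou4f2 stood at 2.91 (0.739 to 13.5), Irx6 at 2.77 (0.539 to 17.8) and Phox2a at 0.554 (0.0547 to 3.10). Over the 40 genes and 3 pairs of libraries, the interval of Lmx1a for v2 over v1 alone did not include 1.

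**Figure D5:**
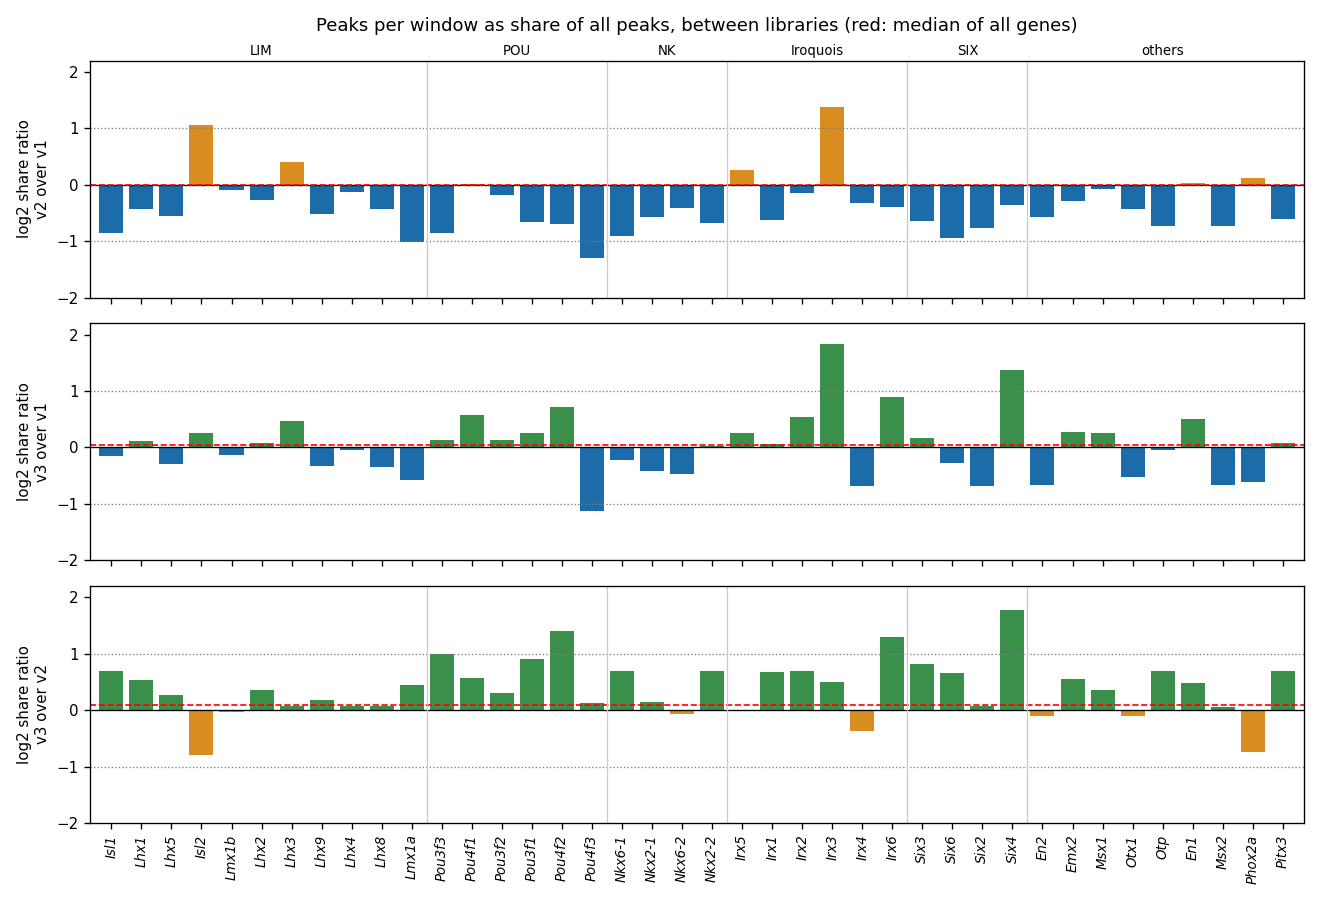
Log2 ratio of the share of peaks in each gene window between libraries, with a pseudocount of 0.5 peaks, for the 40 genes in the order of the plot of covered shares, 1 panel per pair. Bars take the colour of the library with the larger share (blue v1, orange v2, green v3), dotted lines mark 2-fold and the red dashed line is the median of all protein-coding genes. Most bars of v2 over v1 point down and most of v3 over v2 point up.

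By covered length the patterning genes also differed in order from most genes. The v2 library covered more of the window than v1 in 84.0% of all genes, but in 24 of the 40. The v3 library covered more of the window than v2 in 18.7% of all genes, but in 28 of the 40. It covered more than v1 in 32 of 40, against 64.0% of all genes. The covered share of all genes was smaller in v2 than in v1 in 6.41%, in v3 than in v2 in 71.5% and in v3 than in v1 in 25.2%. The rest were equal, genes with no peak in either library among them. Genes that kept the usual order include Lmx1b, at 29.0%, 49.4% and 36.5% in v1, v2 and v3, Lhx3 at 24.6%, 48.2% and 33.3% and Lhx4 at 26.1%, 41.8% and 31.1%. Of the 11 LIM genes, 5 were covered more in v3 than in v2, against 5 of 6 POU genes, 5 of 6 Iroquois genes, 3 of 4 NK genes, all 4 sine oculis genes and 6 of 9 others. Promoter type and window length were set beside this. Among the 7738 protein-coding genes with at least 1 CpG island type promoter, v3 covered more than v2 in 24.5%, and among the 4204 of these with windows of at most 40 kb in 27.4%. Of the patterning genes, 16 of 23 with such a promoter and 6 of 9 with another promoter were covered more in v3. The part of CpG content in the difference was not tested.

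Of the 26 further class genes, such as Otx2, 12 were covered more in v3 than in v2, as were 19 of 39 Hox genes, 5 of 9 Pax genes, 13 of 16 proneural bHLH genes and 3 of the 15 neuronal, glial and vascular genes. The median covered shares of the further class genes were 31.5%, 43.2% and 42.8% in v1, v2 and v3, those of the Hox genes 31.6%, 46.5% and 46.7%, and those of the proneural genes 38.3%, 34.98% and 48.0%. The Pax genes, with a median window of 65.0 kb, had 15.0%, 19.1% and 15.1%. As a check of the tissue, 14 of 15 neuronal, glial and vascular genes had a peak at the start in v1 and all 15 in v2 and v3, against 1 of 3 liver genes in each library.

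Regions at the patterning genes were shared by the libraries more often than regions in general. When the 3 lists were merged, the windows held 393 regions, of which 222 (56.5%, exact Clopper-Pearson 95% interval 51.4 to 61.5) had a peak in all 3 libraries. In the windows of all protein-coding genes the share was 46.6%, and over all 825280 regions 39.0%. It was 48.0% for the LIM class of the 40 genes, 43.5% for the further class genes, 48.0% for the Hox genes and 38.2% for the Pax genes. It was 62.3% for the 15 neuronal, glial and vascular genes and 64.0% for the proneural genes. A further 67 were in 2 libraries, 44 in v2 only, 34 in v3 only and 26 in v1 only. Pou4f1 had 6 of 7 regions in all 3 libraries, and Otp, Otx1, Nkx2-1 and Pou3f1 had 5 of 6. Irx3 had 2 of 7, Lhx3 4 of 11 and Lmx1a 14 of 38. Of the 1035 kb of all 40 windows, 23.5% of bases were under a peak in all 3 libraries and 49.3% in none.

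A long noncoding RNA gene reached into the window of 24 of the 40 genes (60%), against 27.2% of all protein-coding genes and 19.8% of those with windows of at most 40 kb. Examples are Six3os1 beside Six3, Lhx1os beside Lhx1, Pantr1 beside Pou3f3 and Nkx2-2os beside Nkx2-2. A peak near a shared start cannot be assigned to either gene of such a pair. Some windows also hold part of another protein-coding gene, such as Inppl1 in that of Phox2a and Mnat1 in that of Six4. The widest Phox2a peaks of v1 and v2 lay past the end of the gene.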

How the data were processed

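Peak lists of 3 libraries of mouse whole brain, 1 per version, were analysed. The authors deposited peaks as positions only (chromosome and both ends), with no score, count or signal. ArchR, MACS2 and the build mm10 are named in the submitters' processing notes. Aligner, tool versions, threshold, sequencing depth and any pooling of cells are not named in the labels, so depth is unknown. The 40 genes and the comparison lists were chosen with earlier results of these data known. Gene spans and starts came from RefSeq tables of GRCm38.p6.

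Peaks overlapping the gene span plus 5 kb by at least 1 bp were counted with Python 3.11.15, numpy 2.4.6, pandas 2.3.3 and scipy 1.17.1. Where no start was listed (8 genes), either end of the span was used. Shares were set against 21631 protein-coding genes, those with no peak included. Share ratios have exact conditional binomial 95% intervals, which cover counting error only, and log2 ratios a pseudocount of 0.5 peaks scaled to the library totals. Merged regions join peaks that overlap or touch. With 1 library per version no test between versions was possible and no p-value is given. The interval code was tested on simulated data. Values are written out for the 2 genes with the largest and the 1 with the smallest covered share per class, those with the widest peaks and those with the most extreme share ratios among genes with at least 10 peaks; further genes were added after their values were seen.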

Additional observations from a re-analysis of the deposited data

How the results depend on the processing

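Of 130 alternative values, 108 stayed within 1.5 times the reported count or inside the reported interval, and no called ratio turned its direction. Some of the 108 could not change and show no robustness. Flank width and counting peaks by their midpoint do not enter the call at the start. The midpoint does not enter covered share or widest peak either. Leaving out peaks of 500 bp or less cannot alter a count of widest peaks over 1500 bp. All 40 genes kept a peak at the start within 500 bp of it, and 35, 40 and 39 did in v1, v2 and v3 when only peaks wider than 500 bp were used. The pooled share ratios stayed inside their intervals under every alternative run, leaving out each class included. With 20 kb flanks, the genes above the all-gene median were 17, 8 and 15 in v1, v2 and v3 by covered share (36, 30 and 35 as reported) and 16, 8 and 15 by peaks per kb (34, 26 and 32 as reported). A background of windows of at most 40 kb was added after seeing the data. When each library had to cover 50% of a region or more, 44.0% of regions were in all 3 libraries (56.5% as reported). By the same rule it was 35.9% in the windows of all protein-coding genes and 29.5% over all regions. The counts past a 2-fold share ratio are small and unstable. For v2 over v1, the 2 higher genes became 0 with covered bases, gene spans alone and peaks wider than 500 bp and 1 with 20 kb flanks, and the 2 lower genes became 0 with covered bases and 6 with gene spans alone. For v3 over v1, the 2 higher genes became 4 with gene spans alone, and the 1 lower gene became 0 with covered bases, 2 with 20 kb flanks and 3 with gene spans alone and with peaks wider than 500 bp. For v3 over v2, the 3 higher genes became 8 with gene spans alone, and 1 with covered bases, with peaks over 500 bp alone or with 20 kb flanks. The cause was not tested. No paired analysis was possible because each version has 1 library.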
